A study of Mus musculus with 8 samples.

Results

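The proteasome is the large protease that degrades proteins tagged with ubiquitin, and its subunits and assembly factors were compared between B cells of the 2 zones of mouse germinal centres. Its members were taken as every gene whose symbol is Psm, a letter from a to g and a number, other than the inducible subunits Psmb8 and Psmb9, provided that a probe set on the array carries that symbol alone. This gave 47 genes among 18193 genes named on the array. Of these, 17 encode the 20S core, 17 the 19S cap, 11 are assembly chaperones, activators or a regulator, and 2 (Psmc3ip and Psme3ip1) share the symbol pattern without being assigned a place in the complex. The activator gene Psme2 is detected only by a probe set that also names Psme2b and was not analysed here. A gene was represented by its brightest probe set and tested if that probe set reached the median level of all probe sets, and 45 of the 47 members passed. The exceptions were Psma8 and Psmb11, which encode core subunits known from testis and thymus.

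The samples were light zone and dark zone B cells sorted from lymph nodes of C57BL/6 mice 12 days after an injection under the skin of NP-KLH (a protein antigen carrying the hapten NP) in alum. The gate for all samples was B220+CD38-CD95+, and each of the 8 arrays (4 labelled light zone, 4 labelled dark zone) measured 1 sorted sample, called a biological replicate in the labels. The labels do not say how many mice each sample came from, so p-values measure the spread between these samples. The gate wording in the labels (light zone high in CXCR4 and low in CD83, dark zone the reverse) runs against the mRNA: Cd83 was higher in the arrays titled light zone by 2.32 on the log2 scale and Cxcr4 was lower by 0.96, so the groups follow the titles.

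Values are RMA intensities, a background-corrected and quantile-normalised summary of each probe set. Array medians lay between 27.3 and 28.1, arrays of the same zone correlated at 0.995 to 0.997, and the number of arrays limits the precision. None of the 3 named B cell markers (Cd79a, Cd79b, Ms4a1) differed past the test. Summed intensities of a 7-gene myeloid marker list were 181.5 to 243.7 in light zone arrays and 290.7 to 1015.8 in dark zone arrays, with Lyz2 and Csf1r lower in the light zone and 4 genes, including Itgam and Cd14, below the filter on dim genes. For 6 T cell markers the sums were 151.3 to 164.7 in light zone arrays and 151.8 to 165.8 in dark zone arrays, and none was called. A plasma cell list of 5 genes summed to 8052.8 to 8801.1 in light zone arrays and 8919.3 to 9429.2 in dark zone arrays, with Prdm1 and Irf4 higher and Jchain lower in the light zone. A list of 6 follicular dendritic and stromal genes summed to 2084.8 to 2344.7 in light zone arrays and 1068.7 to 1378.8 in dark zone arrays, and its 1 call was Cr2, which B cells also express. The part of these other cells in the results below was not tested, and in bulk samples fewer cells of a type and less RNA per cell cannot be told apart.

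As background, the 20S core is a barrel of alpha and beta rings whose beta subunits Psmb5, Psmb6 and Psmb7 cut peptide bonds. Lymphocytes and cells exposed to interferon can build the barrel with Psmb8, Psmb9 and Psmb10 in their place, which makes the immunoproteasome. The 19S cap binds ubiquitin chains, removes them, unfolds the substrate with a ring of ATPases and feeds it into the barrel. Dedicated chaperones build the core and the cap separately, and other activators, such as PA28 made from Psme1 and Psme2, can dock in place of a cap.

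The core and the cap differed in their pattern. In the light zone, 9 of 17 tested cap genes were lower and none was higher than in the dark zone, with a median difference (light zone minus dark zone, log2) of -0.18, while 13 of 15 tested core genes did not pass and the median was 0.02. The 6 members that were higher in the light zone were the core gene Psmb10, 3 chaperones of the core and 2 activators. Over all members, 6 of 45 tested (13.3%) were higher and 12 (26.7%) lower in the light zone at a limma adjusted p under 0.05 (Benjamini-Hochberg), where 24.8% of all 10547 tested genes were higher and 19.1% lower, and the median difference of all tested genes was 0.01. The share of members called higher was therefore below that of all genes, and the share called lower above it, and 52.9% of the cap genes were called lower. In 21 members (46.7%) the arrays of the zones did not overlap, against 41.3% of all tested genes.

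**Figure D1:**
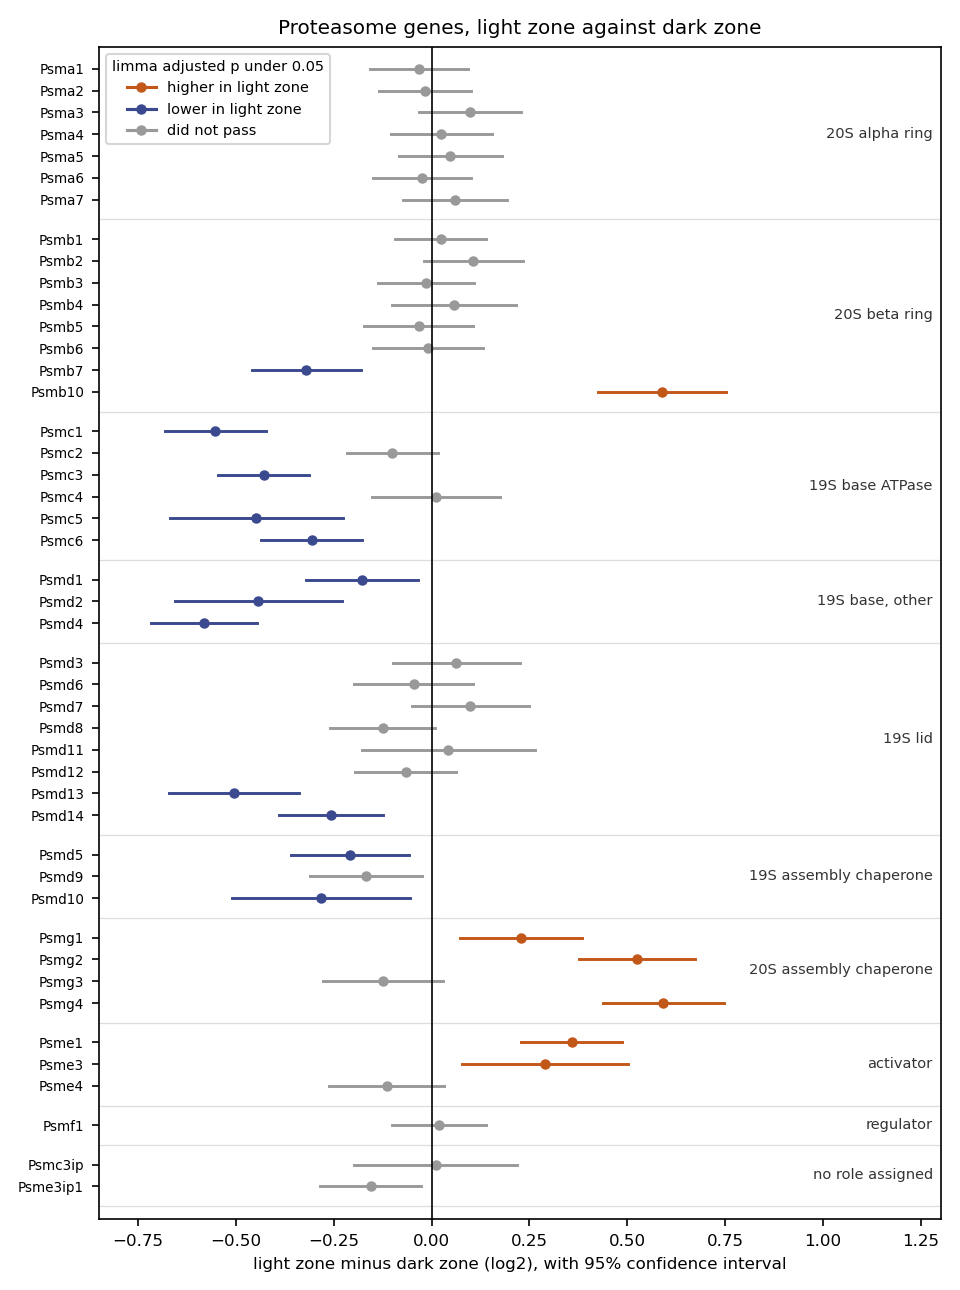
Difference between light zone and dark zone for the 45 tested members, grouped by their place in the proteasome. The x axis is light zone minus dark zone on the log2 scale, points are estimates from 4 arrays per zone and bars are 95% confidence intervals. Alpha ring genes lie around 0, 13 of 17 cap genes lie to the left (9 of them called lower) and 3 of 4 chaperones of the core lie to the right.

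The 7 tested genes of the alpha ring, which forms the gate of the barrel, showed no difference past the test. Their estimates ran from -0.03 (Psma1) to 0.10 (Psma3), and all their 95% confidence intervals lay between -0.16 and 0.23, so larger differences in either direction lie outside these intervals. Psma3 had 4393.5, 4429.4, 4287.6 and 4421.7 in light zone arrays, against 3773.5, 4253.2, 4219.8 and 4152.2 in dark zone arrays. Its light zone arrays were all above its dark zone arrays, but the adjusted p was 0.20 (limma). The 6 constitutive beta subunit genes other than Psmb7 had estimates from -0.03 (Psmb5) to 0.11 (Psmb2), and none passed.

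Among the catalytic subunits, the inducible Psmb10 and the constitutive Psmb7, whose place it takes in the immunoproteasome, moved in opposite directions. Psmb10 had intensities of 1313.5, 1144.9, 1279.0 and 1298.4 in light zone arrays, against 776.7, 944.5, 809.9 and 821.9 in dark zone arrays. All light zone arrays were above all dark zone arrays, a log2 difference of 0.59 (SE 0.07, limma adjusted p = 5.6e-05). Psmb7, which carries the trypsin-like activity, had 369.1, 370.2, 394.8 and 358.4 in light zone arrays, against 466.7, 484.6, 487.1 and 425.8 in dark zone arrays. Here every light zone array was below every dark zone array, a difference of -0.32 (SE 0.06, limma adjusted p = 0.0016).

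The other constitutive catalytic genes overlapped between zones. Psmb5, the chymotrypsin-like subunit and the main target of proteasome inhibitor drugs, had 1378.1, 1370.2, 1410.5 and 1505.6 in light zone arrays, against 1563.3, 1417.5, 1459.3 and 1357.7 in dark zone arrays, a difference of -0.03 (95% confidence interval -0.17 to 0.11). Psmb6, the caspase-like subunit, had 2207.0, 2029.2, 2057.2 and 2235.9 in light zone arrays, against 1976.9, 2221.9, 2139.8 and 2245.4 in dark zone arrays, a difference of -0.01 (95% confidence interval -0.15 to 0.13). The inducible partners of these genes, Psmb9 for Psmb6 and Psmb8 for Psmb5, were higher in the light zone by 0.44 (SE 0.06, limma adjusted p = 1.8e-04) and 0.17 (SE 0.06, limma adjusted p = 0.027). In each of the 3 pairs the inducible gene thus had the larger difference, by 0.91 (Psmb10 over Psmb7), 0.45 (Psmb9 over Psmb6) and 0.20 (Psmb8 over Psmb5) on the log2 scale, which was not tested as a contrast between genes.

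**Figure D2:**
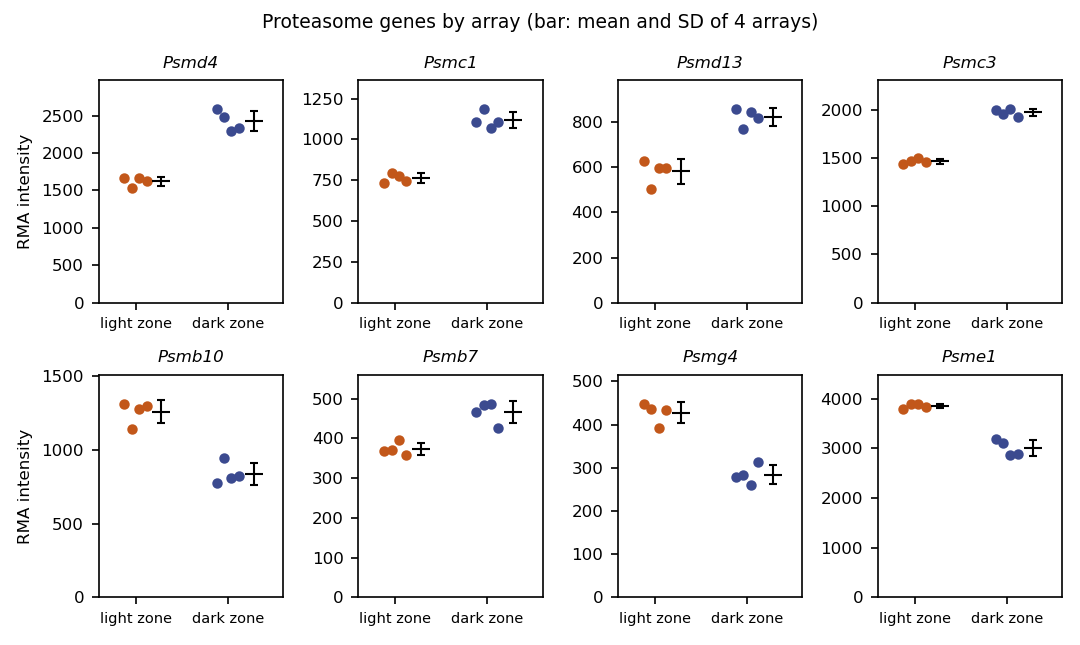
RMA intensity of 8 members in each array, light zone on the left and dark zone on the right, with the mean and SD of 4 arrays as a black bar. The zones do not overlap in any of the 8 panels: Psmd4, Psmc1, Psmd13, Psmc3 and Psmb7 are lower and Psmb10, Psmg4 and Psme1 higher in the light zone.

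The base of the cap held most of the genes that were lower in the light zone. Of the 6 ATPase genes, which form the unfolding ring, 4 were lower and none higher. Psmc1 had 732.8, 795.8, 777.3 and 742.5 in light zone arrays, against 1106.7, 1185.7, 1072.4 and 1105.3 in dark zone arrays. No array of the one zone came near the other, with a difference of -0.55 (SE 0.06, limma adjusted p = 1.4e-05), which was -0.30 (adjusted p = 5.3e-04) when averaged with its other probe set, one below the filter. Psmc3 had 1440.6, 1466.5, 1505.8 and 1456.2 in light zone arrays, against 2003.5, 1959.2, 2009.4 and 1929.0 in dark zone arrays, again without overlap, and its difference was -0.43 (SE 0.05, limma adjusted p = 4.5e-05). Psmc5 varied more, with 566.1, 407.5, 541.5 and 505.7 in light zone arrays, against 672.2, 637.8, 656.3 and 776.6 in dark zone arrays. All its light zone arrays were still below the dark zone ones, by -0.45 (SE 0.10, limma adjusted p = 0.0036). Psmc6 was lower by its brightest probe set, with 1505.3, 1544.4, 1551.7 and 1623.2 in light zone arrays, against 2001.7, 2009.0, 1849.4 and 1841.0 in dark zone arrays (-0.31, SE 0.06, limma adjusted p = 0.0013). The call of Psmc6 depends on that probe set: it was lost when its 3 probe sets were averaged (-0.10, adjusted p = 0.32) and in its second brightest probe set (-0.16, adjusted p = 0.18). The remaining ATPase genes, Psmc2 (-0.10, adjusted p = 0.15) and Psmc4 (0.01, adjusted p = 0.91), did not pass.

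The 3 base genes that are not ATPases were all lower in the light zone. Psmd4, a receptor that binds ubiquitin chains, had 1661.6, 1529.2, 1666.3 and 1623.5 in light zone arrays, against 2588.6, 2475.7, 2298.4 and 2337.8 in dark zone arrays. Its zones were far apart, with a difference of -0.58 (SE 0.06, limma adjusted p = 1.3e-05), close to that of Psmc1. Both dimmer probe sets of Psmd4 were lower in the light zone as well (-0.87, adjusted p = 7.4e-06, and -0.21, adjusted p = 0.048). Psmd2, a scaffold that also docks ubiquitin-like shuttle proteins, had 817.4, 633.6, 847.4 and 763.1 in light zone arrays, against 1176.2, 1050.1, 973.2 and 949.3 in dark zone arrays. These did not overlap, and the difference was -0.44 (SE 0.10, limma adjusted p = 0.0031), or -0.28 (adjusted p = 0.0045) averaged with a probe set below the filter. Psmd1, the other large scaffold, was close to the threshold at -0.18 (SE 0.06, limma adjusted p = 0.043). Its light zone arrays, 1323.6 to 1398.8, lay below its dark zone arrays, 1438.4 to 1687.1, but in the 8 fits that leave out 1 array the call held only without replicate 1 or replicate 4 of the dark zone (limma adjusted p = 0.021 to 0.12).

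In the lid, the part of the cap that removes ubiquitin chains, 2 of the 8 members were lower and none higher. Lid genes whose symbols lie outside the pattern are not in this count. That share of lower genes (25%) was near the 19.1% of all tested genes. Psmd13 had 628.3, 501.8, 597.8 and 598.7 in light zone arrays, against 857.7, 770.0, 845.7 and 818.1 in dark zone arrays, with no overlap (-0.50, SE 0.08, limma adjusted p = 2.2e-04). Its second brightest probe set gave a smaller difference of -0.28 (adjusted p = 0.040), and the average of its 4 probe sets gave -0.25 (adjusted p = 0.0028). Psmd14, the deubiquitinase of the lid, had 3579.0, 3475.8, 3576.1 and 3586.7 in light zone arrays, against 4577.8, 4330.2, 4113.0 and 3986.6 in dark zone arrays. The zones were again separate, but the difference was smaller, at -0.26 (SE 0.06, limma adjusted p = 0.0047). The 6 other lid members (Psmd3, Psmd6, Psmd7, Psmd8, Psmd11 and Psmd12), which are structural, ran from -0.13 (Psmd8) to 0.10 (Psmd7).

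The members have 100 probe sets of their own name, of which 84 were above the filter and 39 of these were not the brightest of their gene. In a fit of all 18851 named probe sets above the filter, 14 of 31 cap probe sets (45.2%) were lower in the light zone and none higher, and of 26 core probe sets 1 was lower and 2 higher (limma adjusted p under 0.05). In that fit 20.7% of all probe sets were lower and 21.6% higher.

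Averaged within each array, as log2 deviations from each gene's own mean over the 8 arrays, the 17 cap genes stood at -0.14, -0.14, -0.09 and -0.08 in light zone arrays, against 0.12, 0.12, 0.09 and 0.12 in dark zone arrays. The 15 core genes stood at -0.005, 0.013, 0.020 and 0.047 in light zone arrays, against -0.036, -0.004, -0.012 and -0.023 in dark zone arrays. The zones were clearly separate for the cap and touched for the core, where the lowest light zone array was below the highest dark zone array. For the mean of all tested genes they were separate too, at 0.013 to 0.024 in light zone arrays and -0.032 to -0.005 in dark zone arrays. The mean difference was -0.22 for the cap and 0.04 for the core, and it was 0.04 for all tested genes.

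**Figure D3:**
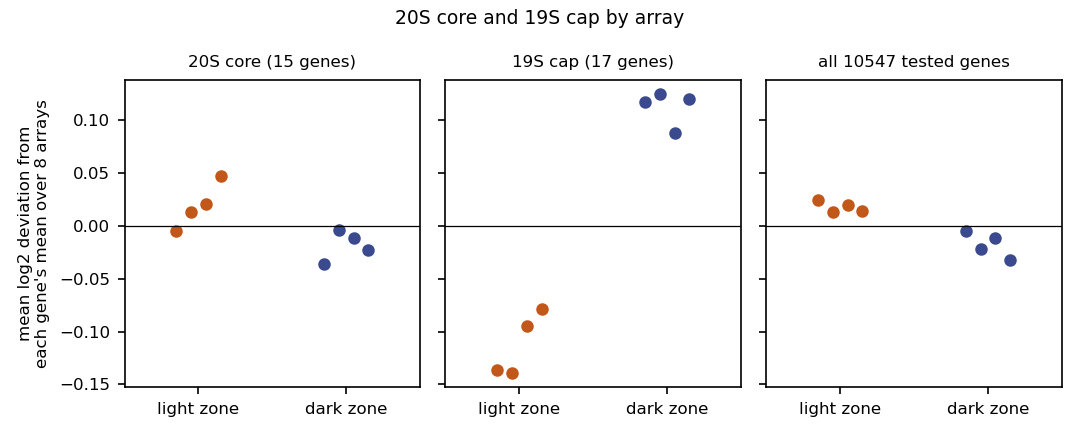
Mean log2 deviation of the 20S core genes, the 19S cap genes and all tested genes in each array, on 1 shared y axis, with light zone arrays on the left and dark zone arrays on the right of each panel. Each point is 1 array. The cap genes lie between -0.14 and -0.08 in light zone arrays and between 0.09 and 0.12 in dark zone arrays.

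Promoter sequences were looked up for the members that moved together. RefSeq promoters of assembly GRCm38.p6, from 250 bases before to 50 after each gene's start, were found for 39 of the 47 members. Both strands were searched for 13 motifs picked with the expression results known. The ETS-type motif CCGGAAG was present in 9 of 14 cap promoters (64.3%) and 1 of 13 core promoters (7.69%, Psma6), against 21.6% of the 8572 tested genes with a promoter and 9.93% of all 27025 genes. It did not separate the cap genes by their call, being present in 5 of 8 that were lower in the light zone and 4 of 6 that were not called. The windows below, from 130 bases before to 5 after the start, show this motif in capitals, on either strand, for the 5 cap genes that were lower in the light zone and carry it. Psmd4 lies at chr3:95042610-95042744 (minus strand), Psmc1 at chr12:100110072-100110206 (plus), Psmd13 at chr7:140882264-140882398 (plus), Psmd2 at chr16:20651522-20651656 (plus) and Psmc6 at chr14:45329694-45329828 (plus).
Psmd4: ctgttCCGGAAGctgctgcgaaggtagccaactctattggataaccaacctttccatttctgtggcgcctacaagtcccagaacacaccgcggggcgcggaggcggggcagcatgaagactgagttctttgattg
Psmc1: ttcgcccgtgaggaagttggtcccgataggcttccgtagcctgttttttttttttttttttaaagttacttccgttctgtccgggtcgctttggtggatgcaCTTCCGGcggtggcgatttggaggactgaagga
Psmd13: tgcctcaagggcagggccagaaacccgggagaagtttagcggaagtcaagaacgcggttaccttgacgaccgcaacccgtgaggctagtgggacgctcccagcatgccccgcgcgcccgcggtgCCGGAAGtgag
Psmd2: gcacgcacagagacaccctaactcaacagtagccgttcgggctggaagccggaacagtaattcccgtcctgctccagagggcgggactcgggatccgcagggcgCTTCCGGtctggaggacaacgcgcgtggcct
Psmc6: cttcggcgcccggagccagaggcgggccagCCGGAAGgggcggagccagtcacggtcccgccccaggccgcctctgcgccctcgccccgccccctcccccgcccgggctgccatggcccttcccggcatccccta

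The 2 members with the highest differences in the light zone do not have CCGGAAG in their promoters. Of the other members called higher, Psmg1 and Psme3 have it, Psme1 does not, and no promoter was found for Psmg2. The motif thus did not follow the direction of the calls. Psmb10 lies at chr8:105938388-105938522 (minus strand), where the capitals mark an E box (CACGTG), a motif bound by MYC among other factors. Psmg4 lies at chr13:34162834-34162968 (plus strand) and holds neither motif in this window.
Psmb10: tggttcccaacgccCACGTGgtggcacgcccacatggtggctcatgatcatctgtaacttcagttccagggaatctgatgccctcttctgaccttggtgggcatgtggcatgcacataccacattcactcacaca
Psmg4: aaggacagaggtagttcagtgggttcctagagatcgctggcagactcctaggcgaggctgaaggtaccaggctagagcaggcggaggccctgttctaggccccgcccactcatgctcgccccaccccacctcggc

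Matches of the other motifs, as a share of core, cap and tested genes, were spread differently. The E box was in 15.4% of core promoters, 0 of 14 cap promoters and 12.0% of tested genes. Among all member promoters the share was 12.8%. These were Psmb10 and Psme3, called higher, and Psma4, Psmd9 and Psme3ip1, which were not called. The antioxidant response core TGACNNNGC, the kind of element bound by the proteasome regulator NFE2L1, was in 15.4% of core, 14.3% of cap and 16.9% of tested genes. CCAAT was in 53.8% of core, 28.6% of cap and 42.8% of tested genes, and its longer form GATTGG, which overlaps it on the other strand, was in 15.4%, 21.4% and 23.8%. The GC box GGGCGG was in 38.5% of core, 71.4% of cap and 68.4% of tested genes. TGACGT was in 23.1% of core, 7.14% of cap and 13.9% of tested genes, and its palindrome TGACGTCA in no member and 3.76% of tested genes. The cell cycle element TTTGAA was in 0 of 13 core promoters, 14.3% of cap and 14.1% of tested genes. CACTTCCGG, which contains the ETS-type motif on the other strand, was in 0 of 13 core promoters, 21.4% of cap and 5.35% of tested genes. A longer antioxidant element, a nuclear respiratory factor palindrome and a ZNF143-type element were in at most 2 members each. Over all 27025 genes the shares were 8.09% for the E box, 14.0% for TGACNNNGC, 41.1% for CCAAT, 18.2% for GATTGG and 38.2% for GGGCGG. They were 8.37% for TGACGT, 2.03% for TGACGTCA, 20.2% for TTTGAA and 2.25% for CACTTCCGG, and 3.45%, 1.07% and 0.311% for the 3 longer elements in the order named.

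The chaperones of the core and of the cap that were called by their brightest probe sets differed in direction. Psmg1, Psmg2, Psmg3 and Psmg4 encode partners that help the alpha ring assemble. Of these 4, 3 were higher in the light zone (75%, against 24.8% of all tested genes). Psmg4 had 448.3, 436.9, 393.1 and 433.1 in light zone arrays, against 279.8, 283.1, 260.9 and 313.0 in dark zone arrays. The zones did not overlap, and its difference was 0.59 (SE 0.07, limma adjusted p = 3.4e-05), the same to 2 decimals as that of Psmb10, and 0.39 (adjusted p = 2.5e-04) averaged with a probe set below the filter. Psmg2 had 639.8, 727.3, 700.7 and 684.8 in light zone arrays, against 464.4, 528.4, 461.3 and 459.5 in dark zone arrays. Every light zone array was higher, by 0.53 (SE 0.07, limma adjusted p = 6.3e-05), and its second probe set gave 0.48 (adjusted p = 2.7e-04). The dimmest, below the filter, was at -0.13, and the average of the 3 was 0.29 (adjusted p = 0.0036). Psmg1, the partner of Psmg2, had 530.2, 504.9, 571.2 and 532.7 in light zone arrays, against 458.8, 465.5, 496.5 and 408.1 in dark zone arrays. It was higher without overlap (0.23, SE 0.07, limma adjusted p = 0.022), but did not pass once replicate 3 of the light zone or replicate 4 of the dark zone was left out (limma adjusted p = 0.013 to 0.067 over the arrays left out). Psmg3, the partner of Psmg4, was at -0.12 (SE 0.07, limma adjusted p = 0.18), with light zone arrays of 283.4 to 341.9 and dark zone arrays of 334.1 to 353.1. The average of its probe sets was also -0.12 and was called lower (limma adjusted p = 0.047).

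By their brightest probe sets, all 3 chaperones of the cap base had negative estimates. Of these, 2 passed as lower (66.7%, against 19.1% of all tested genes). Psmd5 had 420.3, 364.2, 393.2 and 427.3 in light zone arrays, against 495.0, 455.6, 468.1 and 434.0 in dark zone arrays (-0.21, SE 0.07, limma adjusted p = 0.029). Psmd10, also called gankyrin, had 374.6, 462.8, 486.5 and 353.8 in light zone arrays, against 501.9, 564.1, 496.9 and 464.2 in dark zone arrays (-0.28, SE 0.10, limma adjusted p = 0.045). The arrays of Psmd5 were separate between zones and those of Psmd10 overlapped. Neither call was robust: without 1 array, Psmd5 was lost in 4 of 8 cases (replicates 2 and 3 of the light zone, 1 and 3 of the dark zone; limma adjusted p = 0.024 to 0.084) and Psmd10 in 5 (replicates 1 and 4 of the light zone, 1, 2 and 3 of the dark zone; limma adjusted p = 0.016 to 0.13). Psmd9 was at -0.17 (limma adjusted p = 0.056), but its sign rests on its brightest probe set. Its other probe sets were at 0.002 and 0.18, both without a call, and the average was 0.006 (limma adjusted p = 0.95).

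Of the alternative activators, Psme1 and Psme3 were higher in the light zone. Psme1, the PA28 alpha subunit that joins the immunoproteasome in making peptides for MHC class I, had 3793.9, 3894.9, 3883.4 and 3824.5 in light zone arrays, against 3192.2, 3100.2, 2854.9 and 2878.2 in dark zone arrays. These were far apart for their spread (0.36, SE 0.06, limma adjusted p = 4.1e-04). Psme3, the nuclear PA28 gamma, had 248.7, 249.9, 283.2 and 296.0 in light zone arrays, against 196.3, 196.3, 236.4 and 255.7 in dark zone arrays. Its zones overlapped (0.29, SE 0.10, limma adjusted p = 0.030), and the call was lost when replicate 3 or 4 of the light zone, or 1 or 2 of the dark zone, was left out (limma adjusted p = 0.0093 to 0.087). Psme4, the activator PA200, was at -0.12 (limma adjusted p = 0.19) and the inhibitor-like Psmf1 at 0.02 (limma adjusted p = 0.81), and dimmer probe sets of both gave other answers. The 2 members with no assigned place did not pass: Psmc3ip, a meiotic recombination factor named for binding Psmc3, was at 0.01 (limma adjusted p = 0.94) and Psme3ip1, a partner of Psme3, at -0.16 (limma adjusted p = 0.0505). Both core genes below the filter were near the floor in either zone, with 13.2 to 14.0 in light zone arrays and 10.7 to 15.2 in dark zone arrays for Psma8, and 14.1 to 15.1 in light zone arrays and 15.2 to 16.3 in dark zone arrays for Psmb11.

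Among other genes that act on the proteasome or bring substrates to it, 27 could be named on the array and 26 passed the filter. Of these, 4 (15.4%) were higher and 9 (34.6%) lower in the light zone, against the 24.8% and 19.1% of all tested genes, with a median of -0.09. The largest difference was that of Ecpas, an adaptor that clamps cap to core, with 341.9, 266.2, 342.5 and 304.1 in light zone arrays, against 575.1, 656.9, 584.6 and 595.0 in dark zone arrays. Its zones were far apart (-0.95, SE 0.09, limma adjusted p = 3.3e-06), further than those of any member. Nfe2l1, the transcription factor that induces proteasome genes when the proteasome is impaired, and Ngly1, the deglycosylase that acts on it, moved in opposite directions. Nfe2l1 had 281.3, 248.3, 263.0 and 302.3 in light zone arrays, against 222.4, 222.7, 217.2 and 214.3 in dark zone arrays, and was higher without overlap (0.32, SE 0.07, limma adjusted p = 0.0026). Ngly1 had 373.5, 397.8, 389.3 and 381.4 in light zone arrays, against 666.7, 749.2, 707.3 and 637.5 in dark zone arrays, and was lower without overlap (-0.84, SE 0.06, limma adjusted p = 8.6e-07).

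Other called genes of this pathway that were lower in the light zone were Tpp2, a peptidase acting after the proteasome (-0.40, limma adjusted p = 4.2e-04), the unfolding ATPase Vcp (-0.41, limma adjusted p = 9.5e-04), the shuttle protein gene Ubqln1 (-0.29, limma adjusted p = 0.0056, and -0.16, adjusted p = 0.045, averaged over its probe sets), the ubiquitin ligase Ube3c (-0.31, limma adjusted p = 0.0063) and the deubiquitinase Usp14 (-0.31, limma adjusted p = 0.049). The calls of Vcp (-0.03), Ube3c (-0.11) and Usp14 (-0.06) rest on their brightest probe set, since these averages over their probe sets did not pass, and that of Usp14 held in only 2 of 8 fits with 1 array left out, those without replicate 4 of the light zone and replicate 3 of the dark zone (limma adjusted p = 0.010 to 0.14). The remaining called genes were Rad23b (-0.28) and Akirin2 (-0.25), which were lower, and Ubqln4 (0.29), Zfand5 (0.27) and Zfand2a (0.24), which were higher in the light zone. Pomp, the maturation factor of the core, had an estimate of 0.14 (limma adjusted p = 0.063).

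**Figure D4:**
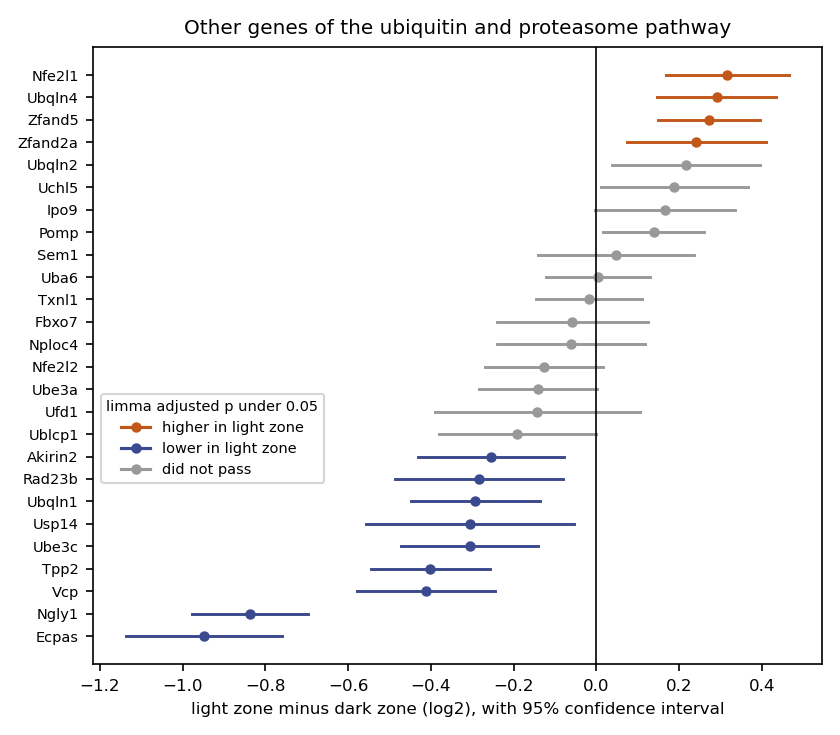
Difference between light zone and dark zone for 26 other genes of the ubiquitin and proteasome pathway, ordered by size. The x axis is light zone minus dark zone on the log2 scale, points are estimates from 4 arrays per zone and bars are 95% confidence intervals. Ecpas and Ngly1 stand apart at the lower end with -0.95 and -0.84, and Nfe2l1 is at the upper end with 0.32.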

How the data were processed

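Biotinylated cRNA from total RNA of sorted cells was hybridised to Affymetrix arrays, per the labels' protocols. The authors deposited linear intensity values made with RMA, per the submitters' processing notes; its version is not given in the sources used here. RMA scales the arrays to each other, so values are relative and not amounts of RNA per cell. For this report the log2 of the 45037 probe sets was taken with no pseudocount. Probe sets with 1 platform symbol (34945) were named, and 34741 matched a gene of the GRCm38.p6 table. Each gene was its probe set with the highest mean, and genes at or above the 50th percentile (an intensity of 27.8) were tested, light zone minus dark zone, with limma 3.58.1 in R 4.3.3 (lmFit, eBayes, two-sided, Benjamini-Hochberg adjustment over all 10547 tested genes, threshold 0.05). The fit was tested on simulated data. Medians over lists carry no test. Members and lists were chosen with earlier results of these data known. Named genes are the catalytic, ubiquitin receptor and deubiquitinase subunits, up to 4 called members with the largest differences in each role group, and the 8 pathway genes with the largest differences; other members are given with shorter statistics, and other genes singled out were chosen after their values were seen. Alternatives varied the filter, probe set choice, normalisation, variance model, array weights, replicate block, threshold and arrays; reading the second brightest probe set was chosen after seeing the data. Sequence searches ran in Python 3.11.15 and plots in matplotlib 3.10.9.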

Additional observations from a re-analysis of the deposited data

Results flagged for a closer look

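In 4 of 90 groups of 4 arrays (45 tested members in 2 zones), 1 array stood apart from the other 3 by Dixon's test on the log2 scale at the 95% level, and chance gives about 5% of groups. Psma4 in light zone replicate 4 had an intensity of 2166.1, above the 2008.8 to 2023.4 of the other light zone arrays. Psmd1 in light zone replicate 2 was at 1323.6, below the other light zone arrays at 1386.4 to 1398.8. Psmd14 in light zone replicate 2 was at 3475.8, below 3576.1 to 3586.7. Psmg2 in dark zone replicate 2 was at 528.4, above the other dark zone arrays at 459.5 to 464.4, and its zones did not overlap with that array included.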

How the results depend on the processing

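The count of cap genes lower in the light zone stayed between 8 and 10 under all 17 alternatives, and the count of core genes stayed at 1 higher and 1 lower. Over all members the count ranged from 4 to 7 for higher and from 9 to 14 for lower. Averaging probe sets kept the calls of Psmc1, Psmd2, Psmd13, Psmg2 and Psmg4 at a smaller size. No cap gene was higher except under averaging of probe sets, where Psmd7 was (0.12, limma adjusted p = 0.0495). Centring arrays on their medians moves every difference by the same amount, and gave a core median of 0.046 and a cap median of -0.15. The core median was -0.0013 to 0.032 when 1 array was left out. Leaving out 1 array gave -0.22 to -0.14 for the cap median, which is the value of Psmd1. The cause of the shifts when 1 array was left out was not tested. For 20 named members, 344 recomputed values stayed on their side of the threshold in 310 cases and lost the call in 34. No call was gained or reversed, but only Psmb5 and Psmb6 among them were uncalled, and these changed sign in some. Among the other members, averaging gave lower calls for Psmc2 (-0.21, limma adjusted p = 0.0030), Psmg3 and Psme3ip1. Psmc2 thus took the place of Psmc6 in the cap count. With 1 array left out, Psmd8, Psmd9 and Psme3ip1 gained a call in single fits. Deviations of same-numbered arrays correlated at 0.13, 0.19, 0.06 and 0.24, and for 3 of the 4 numbers the best partner was the same-numbered array. Since not every pair exceeded 0.1 and no label gives a shared origin, the arrays were treated as sharing only a number. With the replicate block, 11 members (8 in the cap) were lower, 6 higher, and Psmd1 was lost (limma adjusted p = 0.058). The block lowered the limma adjusted p of Psmd10 (from 0.045 to 0.015) and Psme3 (from 0.030 to 0.0035). It raised that of others, such as Psmb10 (from 5.6e-05 to 5.4e-04). The number of arrays limits how small a difference can pass.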

Other observations

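In the limma fit of all named probe sets above the filter, second probe sets of 3 cap genes that were not called by their brightest one were lower: Psmc2 (-0.23, adjusted p = 0.015), Psmd6 (-0.24, adjusted p = 0.021) and Psmc4 (-0.21, adjusted p = 0.049). The second higher core probe set was a dim one of Psma1 (0.24, adjusted p = 0.029), whose brightest gave -0.03.

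Probe sets of Psme4, the activator PA200, went opposite ways. Its brightest gave -0.12, the next ones -0.21 (adjusted p = 0.041) and -0.56 (adjusted p = 6.8e-04), and dimmer ones 0.50 (adjusted p = 3.2e-04) and 0.47 (adjusted p = 1.3e-04). A dimmer probe set of Psmf1 gave -0.43 (adjusted p = 0.0065) where its brightest gave 0.02. Which transcripts these probe sets detect was not tested.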
